A study of Oryza sativa Japonica Group with 29 samples.

Results

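Transcripts of 10 rice genes that make, export and take up the iron chelators of grass roots were followed in 11 root RNA libraries, out of 55986 loci listed per library. The genes were chosen by locus identifier, by a rule that holds no measured value but with earlier results of these data known, and cover nicotianamine synthesis (NAS1, NAS2, NAS3), the later steps to deoxymugineic acid (NAAT1, DMAS1), its export (TOM1), iron uptake and internal transport (YSL15, IRT1, YSL2) and an iron-response regulator (IRO2). All 10 reached 1 TPM (length-scaled transcript abundance, summing to 1000000 per library) in at least 2 libraries and were tested among 23699 genes. Plants over-expressing OsNMCP1 (OE), which encodes a lamin-like protein, were compared with the ZH11 cultivar they are set against (WT). The groups were OE drought (3 libraries), WT drought (3), OE normal (2) and WT normal (3). All plants were 25 days old, at the 4-leaf stage, raised in hydroponics at 28 °C by day and 22 °C at night, and drought meant 3 h without water before the roots were taken. The sources used here do not give the promoter of the transgene, the number of independent lines or the iron content of the culture medium.

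Iron in aerated soils and solutions is poorly soluble, and grasses acquire it by secreting phytosiderophores of the mugineic acid family, which bind ferric iron outside the root. Their synthesis starts from S-adenosylmethionine, which nicotianamine synthase condenses to nicotianamine, itself a chelator that moves iron, zinc and copper inside the plant. Rice also takes up ferrous iron directly. Most of these genes are known in rice for rising in roots short of iron.

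NAS1 (LOC_Os03g19427, chromosome 3, 10929483 to 10930895), NAS2 (LOC_Os03g19420, chromosome 3, 10926469 to 10927950) and NAS3 (LOC_Os07g48980, chromosome 7, 29323094 to 29324723) encode nicotianamine synthases. NAS2 lies on the plus strand and NAS1 on the minus strand, end to end, with 1532 bases between them. NAAT1 (LOC_Os02g20360, chromosome 2, 11997094 to 12002633) encodes nicotianamine aminotransferase, which turns nicotianamine into a keto acid. DMAS1 (LOC_Os03g13390, chromosome 3, 7228964 to 7231749) encodes deoxymugineic acid synthase, which reduces that product to the phytosiderophore. TOM1 (LOC_Os11g04020, chromosome 11, 1618494 to 1623978) encodes the transporter that releases deoxymugineic acid from the root. YSL15 (LOC_Os02g43410, chromosome 2, 26200013 to 26204720) encodes the importer of the ferric complex, and IRT1 (LOC_Os03g46470, chromosome 3, 26286156 to 26292023) encodes an importer of ferrous iron. YSL2 (LOC_Os02g43370, chromosome 2, 26170387 to 26174970) encodes a transporter of iron and manganese bound to nicotianamine, known from the phloem. It lies 25042 bases from YSL15 on the same strand. IRO2 (LOC_Os01g72370, chromosome 1, 41971444 to 41978408) encodes a basic helix-loop-helix factor that promotes the transcription of synthesis and uptake genes under iron shortage. Coordinates are those of the files, for which the sources used here name no build.

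The genotype labels were checked on the over-expressed gene, OsNMCP1 (LOC_Os01g56140), which lay between 347 and 452 TPM in OE drought, 28.1 and 46.4 TPM in WT drought, 167 and 184 TPM in OE normal and 35.5 and 37.6 TPM in WT normal. The labels of the 6 drought libraries give genomic DNA as the molecule, but the titles name RNA sequencing, so all 6 were used as RNA. The sample numbers of the drought and the normal RNA libraries fall in separate blocks. A drought response thus cannot be told apart from any other difference between those blocks. Drought libraries varied more, with a median SD of log2(TPM + 1) of 0.253 in OE drought and 0.270 in WT drought, against 0.075 in OE normal and 0.074 in WT normal. WT drought replicate 3 stood apart, at r = 0.9274 and 0.9439 across genes with the other WT drought libraries, which correlated at 0.9816 with each other. Without it, the number of the 10 genes passing the test was unchanged in each of the 5 comparisons described here (8, 2, 7, 5 and 6). Over all genes tested the number passing did change. It rose from 4917 to 7443 for OE against WT after drought and from 4981 to 7112 for the difference in drought response. The root markers LSI1, LSI2 and CASP1 (3 of the 4 root markers listed could be matched by name) summed to 125 to 296 TPM in OE drought, 621 to 685 in WT drought, 1777 to 1942 in OE normal and 1947 to 1991 in WT normal. Most of this sum was LSI1 and LSI2, and the markers did not all move together. After drought LSI1 and LSI2 fell in WT (log2 differences of -1.75 each), while CASP1 rose (0.51). In OE all 3 fell (LSI1 -3.21, LSI2 -4.38, CASP1 -0.57). The shoot markers CAB2R and RBCS (2 of 6 matched) summed to 14.2 to 100 TPM in OE drought, 223 to 372 in WT drought, 175 to 178 in OE normal and 431 to 627 in WT normal, and neither was at 0 in any library. Most of this sum was CAB2R. After drought in WT, RBCS fell (-4.66) while CAB2R did not pass (-0.76), and in OE both fell (-2.55 and -2.10). The part of these marker shifts in the results below was not tested. Replicates are called biological, but separate cultures are not mentioned, and the p-values then reflect only the spread between these libraries, which may be technical. In such bulk roots, fewer cells of a type and less RNA per cell cannot be told apart.

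**Figure D1:**
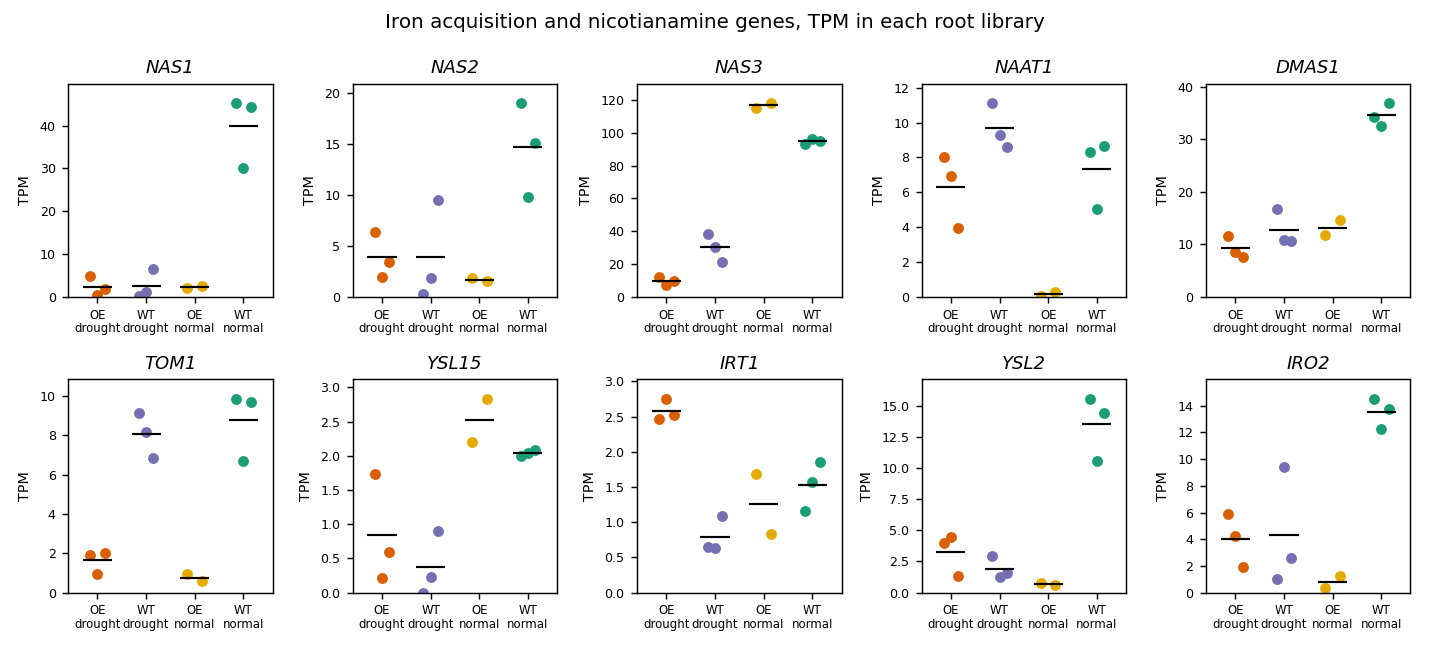
Level of each of the 10 genes in every root library, in TPM on linear axes that differ between panels; each dot is 1 library and each bar the group mean, with groups from left to right OE drought (3), WT drought (3), OE normal (2) and WT normal (3). NAS1, NAS2, NAAT1, DMAS1, TOM1, YSL2 and IRO2 are lower in both OE normal libraries than in all WT normal libraries. The share of all genes separated in this way was not counted, and 12.2% of the genes tested were called lower in OE normal.

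TPM is scaled to transcript length, so levels can be set against each other between genes. In OE normal roots NAS3 led at a mean of 117 TPM, DMAS1 followed at 13.2 TPM, and the other 8 genes averaged 0.170 (NAAT1) to 2.52 TPM (YSL15). In WT normal roots NAS3 also led, at a mean of 94.8 TPM, followed by NAS1 at 39.9 and DMAS1 at 34.5 TPM, whose libraries overlapped. NAS2, YSL2 and IRO2 then averaged 14.6, 13.5 and 13.5 TPM with overlapping libraries, TOM1 and NAAT1 averaged 8.77 and 7.36 TPM and overlapped, and YSL15 and IRT1 were lowest, at 2.04 and 1.53 TPM. After drought NAS3 remained the highest by group mean in both genotypes, at 9.54 ± 2.38 TPM in OE and 30.2 ± 8.40 TPM in WT (SD, n = 3 each). In OE drought its libraries overlapped those of DMAS1, which averaged 9.26 TPM.

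In watered roots, OE was set against WT to ask how over-expression of OsNMCP1 affects these genes. Of the 10 genes, 7 were lower in OE, 1 was higher and 2 did not pass the test. They were lower along the whole route to the phytosiderophore and its release, in the internal transporter YSL2 and in the regulator IRO2. NAS3 was the exception on the higher side, and the importers YSL15 and IRT1 did not pass. Their median difference was -2.49 on the log2(TPM + 1) scale, against 0.03 over all genes tested. Across the 23699 genes tested, 12.2% were lower and 19.0% higher in OE. Both shoot markers were also lower in OE normal (CAB2R -1.52, RBCS -2.23), while of the 3 root markers CASP1 was higher (0.38) and LSI1 and LSI2 did not pass. Differences here are of mean log2(TPM + 1), which understates the change of weakly expressed genes, and each adjusted p comes from limma, Benjamini-Hochberg adjusted over the whole set of genes tested.

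Among the synthases, NAS1 stood at 2.15 and 2.46 TPM in OE normal, against 45.3, 30.1 and 44.3 TPM in WT normal. NAS2 stood at 1.80 and 1.51 TPM in OE normal, against 19.0, 9.82 and 15.1 TPM in WT normal. Neither gene's groups overlapped, and the OE means were 5.78% (NAS1) and 11.3% (NAS2) of the WT means. NAS1 fell by 3.61 (SE 0.25, limma adjusted p = 2.58e-06) and NAS2 fell by 2.52 (SE 0.27, limma adjusted p = 5.61e-05). With an unweighted spread NAS2 did not pass (adjusted p = 0.139). As close copies, NAS1 and NAS2 may have shared reads, so their TPM were also summed, and the sum fell by 3.46 (limma adjusted p = 8.04e-06). NAS3, which stood at 115 and 118 TPM in OE normal, against 93.1, 96.4 and 94.8 TPM in WT normal, was higher by 0.30 (SE 0.08, limma adjusted p = 0.0139). Its groups did not overlap, yet the difference is small, and it did not pass without OE normal replicate 2 or WT normal replicate 1 or 3 (adjusted p = 0.0572 to 0.0647) or with an unweighted spread (adjusted p = 0.804).

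The mix of synthase transcripts differed between the genotypes. In OE normal, NAS3 made up 96.7% of the summed NAS transcripts in both libraries, against 59.2%, 70.7% and 61.5% in WT normal. The sum of the 3 genes was 119 and 122 TPM in OE normal and 157, 136 and 154 TPM in WT normal. Both OE libraries lay below all WT libraries in that sum and above all of them in the NAS3 share.

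**Figure D2:**
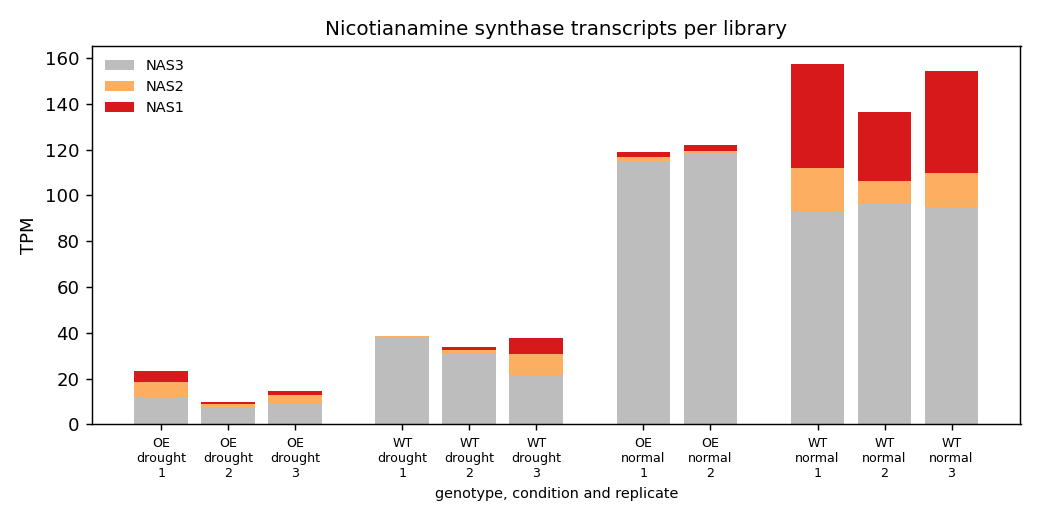
Summed TPM of NAS1, NAS2 and NAS3 in each of the 11 root libraries as stacked bars starting at 0, with OE drought, WT drought, OE normal and WT normal from left to right. In OE normal NAS3 makes up 96.7% of the bar in both libraries, and the shortest bars are those of OE drought, at 9.63 to 23.2 TPM.

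The gene for the next enzyme, NAAT1, was at 0.0385 and 0.30 TPM in OE normal, against 8.34, 5.06 and 8.68 TPM in WT normal. Its read coverage was 0.15 and 0.895 per base in OE normal, against 40.3, 24.6 and 38.9 in WT normal. The OE libraries thus held few NAAT1 reads, and the mean was 2.30% of that in WT, the smallest ratio among the 10 genes in this comparison. NAAT1 fell by 2.81 (SE 0.18, limma adjusted p = 1.71e-06). DMAS1 stood at 11.7 and 14.7 TPM in OE normal, against 34.2, 32.5 and 36.9 TPM in WT normal, and fell by 1.33 (SE 0.10, limma adjusted p = 4.77e-06). DMAS1 thus kept 38.2% of the WT mean, more than the other 6 genes that fell.

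TOM1, the exporter, stood at 0.943 and 0.593 TPM in OE normal, against 9.87, 6.71 and 9.72 TPM in WT normal. It fell by 2.46 (SE 0.15, limma adjusted p = 9.03e-07). YSL2 stood at 0.751 and 0.629 TPM in OE normal, against 15.6, 10.5 and 14.5 TPM in WT normal, and fell by 3.09 (SE 0.16, limma adjusted p = 2.93e-07). In both genes the OE libraries lay far below every WT library. The importers differed from them. YSL15 stood at 2.20 and 2.83 TPM in OE normal, against 1.99, 2.04 and 2.09 TPM in WT normal, a difference of 0.21 (95% interval -0.06 to 0.47, limma adjusted p = 0.225). IRT1 stood at 1.69 and 0.826 TPM in OE normal, against 1.15, 1.57 and 1.86 TPM in WT normal, a difference of -0.18 (95% interval -0.51 to 0.15, limma adjusted p = 0.398). The groups of IRT1 overlapped, while those of YSL15 did not.

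IRO2, the regulator, stood at 0.382 and 1.26 TPM in OE normal, against 14.5, 12.2 and 13.7 TPM in WT normal, and fell by 3.03 (SE 0.23, limma adjusted p = 4.37e-06). A locus on the opposite strand, LOC_Os01g72360, lies wholly inside the span of IRO2 and was at 1.12 to 1.58 TPM in OE normal and 0.295 to 0.346 TPM in WT normal. Another opposite-strand locus, LOC_Os03g46460, shares 1022 bases with IRT1 and was at 5.18 to 5.61 TPM in OE normal and 4.89 to 5.52 TPM in WT normal. The sources used here do not say whether counting used strand, so reads of these pairs cannot be told apart. Within WT normal, replicate 2 was the lowest library for 7 of the 10 genes (NAS1, NAS2, NAAT1, DMAS1, TOM1, YSL2 and IRO2), but it stayed above both OE normal libraries in each of them. Left out, it changed none of these calls.

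The 7 genes lie on 4 chromosomes, and the loci beside the neighbouring pairs were examined. Within 50 kb of NAS1 and NAS2, 15 other loci were tested, of which 1 was higher and 1 lower in OE normal, with differences of -0.95 to 0.26. Within 50 kb of YSL2 and YSL15, 9 other loci were tested, of which 1 was higher and 1 lower, with differences of -0.44 to 0.54. YSL2 and YSL15 are themselves near neighbours, and YSL2 fell by 3.09 where YSL15 did not pass.

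**Figure D3:**
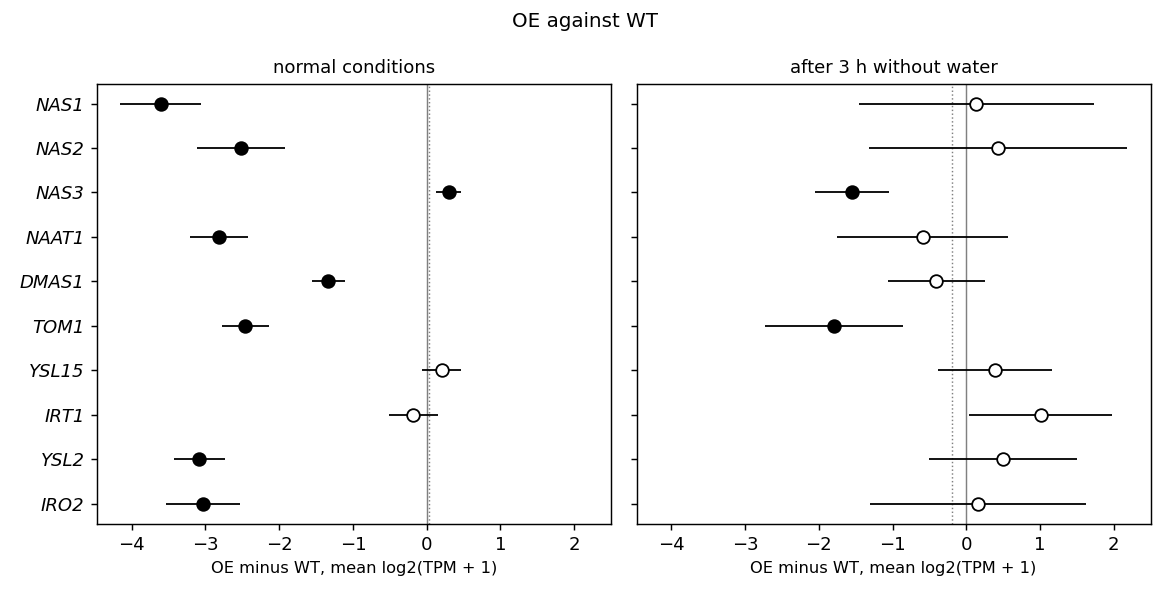
Difference between OE and WT for each of the 10 genes, as OE minus WT of mean log2(TPM + 1), in normal conditions (left) and after 3 h without water (right); dots are estimates, lines 95% intervals, filled dots adjusted p under 0.05 and the dotted line the median of all genes tested (0.03 and -0.20). On the left 7 genes lie between -3.61 and -1.33, and on the right only NAS3 and TOM1 are filled.

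After water was withheld, OE was again set against WT. Of the 10 genes, 2 were lower in OE, NAS3 and TOM1, none was higher in limma and 8 did not pass. Over all genes tested, 13.8% were lower and 6.97% higher in OE. The median difference of the 10 genes was 0.15, against -0.20 over all genes. With libraries scaled by median ratios the all-gene median became -0.02. The share of calls that were higher became 57.3%, against 33.6% on TPM as deposited. Of the 23699 genes tested, 2519 were then higher and 1876 lower, and the same number of the 10 genes passed (2 lower). At an unadjusted p under 0.05, IRT1 was also higher. Among the markers, LSI1 (-1.66), LSI2 (-2.58) and CAB2R (-2.86) were lower in OE drought, and RBCS and CASP1 did not pass.

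NAS3 stood at 12.0, 7.19 and 9.48 TPM in OE drought, against 38.3, 30.7 and 21.5 TPM in WT drought, and was lower by 1.55 on the log2 scale in OE (difference -1.55, SE 0.23, limma adjusted p = 0.00144). TOM1 stood at 1.93, 0.964 and 2.03 TPM in OE drought, against 9.12, 8.19 and 6.86 TPM in WT drought (difference -1.80, SE 0.42, limma adjusted p = 0.0143). In both genes every OE library lay below every WT library. The TOM1 call was lost without OE drought replicate 2 (adjusted p = 0.0849) or without WT drought replicate 1 or 2 (adjusted p = 0.0678 and 0.0611), with differences of -1.60 to -1.78.

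The remaining synthesis genes showed no difference that passed. NAS1 stood at 4.92, 0.488 and 1.84 TPM in OE drought, against 0.168, 1.14 and 6.60 TPM in WT drought (difference 0.13, 95% interval -1.46 to 1.73). NAS2 stood at 6.36, 1.95 and 3.39 TPM in OE drought, against 0.321, 1.82 and 9.47 TPM in WT drought (difference 0.43, 95% interval -1.32 to 2.18). Both genes overlapped widely, with OE drought replicate 1 and WT drought replicate 3 the highest of their groups, and the intervals are wide enough to hold differences of more than 1 either way. Without WT drought replicate 3 the differences were 0.89 (NAS1, limma adjusted p = 0.296) and 1.24 (NAS2, limma adjusted p = 0.175). NAAT1 stood at 8.0, 6.96 and 3.93 TPM in OE drought, against 11.1, 9.28 and 8.61 TPM in WT drought (difference -0.59, 95% interval -1.75 to 0.57). DMAS1 stood at 11.6, 8.50 and 7.66 TPM in OE drought, against 16.7, 10.8 and 10.6 TPM in WT drought (difference -0.41, 95% interval -1.06 to 0.25). NAAT1 was lower in all OE libraries than in all WT libraries, and the DMAS1 groups overlapped.

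IRT1 stood at 2.46, 2.75 and 2.52 TPM in OE drought, against 0.653, 0.631 and 1.09 TPM in WT drought. Every OE library was above every WT library, and the difference of 1.01 (SE 0.44, 95% interval 0.04 to 1.97) had a limma adjusted p of 0.125. With 1 unweighted spread over all libraries or over the 6 drought libraries alone, IRT1 passed (adjusted p = 0.00247 and 0.0181). The opposite-strand locus that overlaps it was at 1.93 to 2.18 TPM in OE drought and 1.84 to 3.36 TPM in WT drought. YSL15 stood at 1.74, 0.207 and 0.597 TPM in OE drought, against 0.233 and 0.901 TPM in WT drought replicates 2 and 3, and it was listed at 0 in WT drought replicate 1 (difference 0.39, 95% interval -0.38 to 1.16). YSL2 stood at 3.98, 4.50 and 1.36 TPM in OE drought, against 2.91, 1.28 and 1.61 TPM in WT drought (difference 0.49, 95% interval -0.51 to 1.50). IRO2 stood at 5.91, 4.21 and 1.9 TPM in OE drought, against 0.988, 9.41 and 2.62 TPM in WT drought (difference 0.16, 95% interval -1.3 to 1.62). The groups of YSL15, YSL2 and IRO2 overlapped.

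The share of NAS3 in the NAS transcripts was 51.5%, 74.7% and 64.4% in OE drought and 98.7%, 91.2% and 57.2% in WT drought. It was lower in OE drought than in OE normal in all 3 libraries, while in WT drought replicate 3 was below the WT normal range and the other 2 were above it. The NAS sum was 23.2, 9.63 and 14.7 TPM in OE drought and 38.8, 33.7 and 37.6 TPM in WT drought.

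The drought response of each genotype was then examined. In WT, 7 of the 10 genes were lower after drought, none was higher in limma (also at an unadjusted p under 0.05) and 3 did not pass, with a median difference of -1.53 against -0.35 over all genes. Over all genes tested, 43.7% were lower and 20.5% higher, so a lower value after drought was common. With median-ratio scaling the all-gene median became -0.01 and the share of calls that were higher 51.7% (32.0% as deposited). Of the 23699 genes tested, 6923 were then higher and 6474 lower, and 7 of the 10 genes were again lower.

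In WT, NAS1 averaged 2.64 ± 3.47 TPM in drought and 39.9 ± 8.47 TPM in normal conditions, and fell by 3.91 (SE 0.54, limma adjusted p = 9.92e-05). NAS2 fell by 2.16 (limma adjusted p = 0.00764), NAS3 by 1.66 (limma adjusted p = 1.26e-05) and DMAS1 by 1.40 (limma adjusted p = 0.000242). YSL2 averaged 1.93 ± 0.861 TPM in WT drought and 13.5 ± 2.64 TPM in WT normal, and fell by 2.33 (SE 0.34, limma adjusted p = 0.00015). YSL15 fell by 1.2 (limma adjusted p = 0.00207) and IRO2 by 1.78 (limma adjusted p = 0.00825). In all 7 the drought libraries lay below all normal libraries, and the share of all genes that did so was not counted. The calls of NAS2 and IRO2 were lost without WT drought replicate 1, the library in which each was lowest (adjusted p = 0.0758 and 0.0799). NAAT1 averaged 9.67 ± 1.3 TPM in WT drought and 7.36 ± 2.0 TPM in WT normal (difference 0.38, 95% interval -0.48 to 1.24). TOM1 averaged 8.06 ± 1.14 TPM in WT drought and 8.77 ± 1.78 TPM in WT normal (difference -0.10, 95% interval -0.79 to 0.59). IRT1 averaged 0.793 ± 0.261 TPM in WT drought and 1.53 ± 0.354 TPM in WT normal (difference -0.50, 95% interval -1.21 to 0.22). NAAT1 and TOM1 overlapped between conditions, while the drought libraries of IRT1 all lay lower.

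In OE, 3 of the 10 genes were higher after drought, 2 were lower and 5 did not pass, with a median difference of 0.62 against -0.56 over all genes. Over all genes tested, 20.8% were higher and 52.5% lower. With median-ratio scaling the all-gene median became -0.01 and the share of calls that were higher 51.6% (28.4% as deposited). Of the 23699 genes tested, 8130 were then higher and 7636 lower, and 5 of the 10 genes were higher and 1 lower.

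NAAT1 averaged 6.29 ± 2.11 TPM in OE drought (n = 3) and 0.170 ± 0.185 TPM in OE normal (n = 2), and rose by 2.60 (SE 0.40, limma adjusted p = 0.000135). YSL2 averaged 3.28 ± 1.68 TPM in OE drought and 0.690 ± 0.0867 TPM in OE normal, and rose by 1.25 (SE 0.35, limma adjusted p = 0.00685). IRO2 averaged 4.01 ± 2.02 TPM in OE drought and 0.822 ± 0.621 TPM in OE normal, and rose by 1.41 (SE 0.50, limma adjusted p = 0.0244). In all 3 genes the drought libraries lay above both normal libraries, and the share of all genes that did so was not counted. YSL2 did not pass without OE drought replicate 1 or 2 (adjusted p = 0.0504 and 0.0631), and IRO2 did not pass without OE drought replicate 1 or 2 or OE normal replicate 1 (adjusted p = 0.0552 to 0.135) or with an unweighted spread (0.0544). The locus inside IRO2, LOC_Os01g72360, was at 52.6 to 91.6 TPM in OE drought and 31.2 to 263 TPM in WT drought, and without strand its reads cannot be told apart from those of IRO2 where they overlap.

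NAS3 averaged 9.54 ± 2.38 TPM in OE drought and 117 ± 2.12 TPM in OE normal, and fell by 3.51 (SE 0.17, limma adjusted p = 5.86e-08). YSL15 averaged 0.847 ± 0.796 TPM in OE drought and 2.52 ± 0.445 TPM in OE normal, and fell by 1.01 (SE 0.27, limma adjusted p = 0.00513). The YSL15 call was lost without OE drought replicate 2 (adjusted p = 0.0584) and under median-ratio scaling (difference -0.64, adjusted p = 0.0703). NAS1 showed a difference of -0.17 (95% interval -1.38 to 1.03), NAS2 of 0.78 (-0.54 to 2.11) and DMAS1 of -0.48 (-0.97 to 0.02). TOM1 showed a difference of 0.56 (95% interval -0.15 to 1.26) and IRT1 of 0.69 (-0.04 to 1.42). Of these 5, TOM1 and IRT1 passed under median-ratio scaling (0.90, adjusted p = 0.0302, and 1.11, adjusted p = 0.00895). That scaling also turned the unpassed differences of NAS1 and DMAS1 positive, to 0.25 and 0.14.

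**Figure D4:**
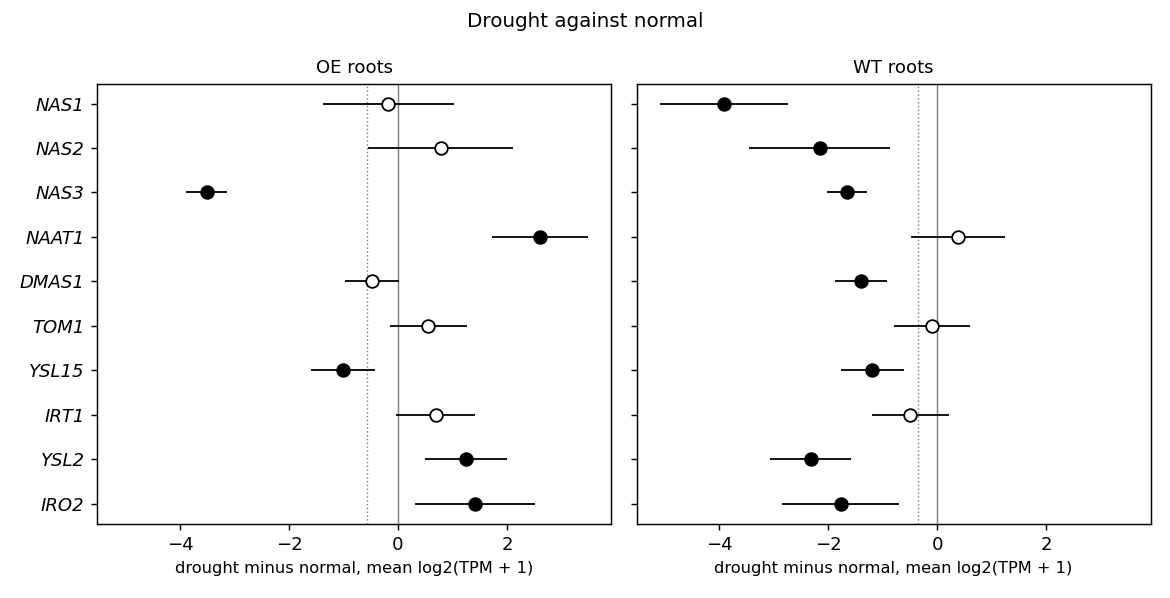
Drought response of each of the 10 genes, as drought minus normal of mean log2(TPM + 1), in OE roots (left) and WT roots (right); dots are estimates, lines 95% intervals, filled dots adjusted p under 0.05 and the dotted line the median of all genes tested (-0.56 and -0.35). NAAT1, YSL2 and IRO2 lie above 0 and are filled in OE, while NAS1, NAS2, YSL2 and IRO2 lie below 0 and are filled in WT.

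Whether the drought response differed between the genotypes was tested directly, as the OE response minus the WT response. This value is also the OE against WT difference after drought minus that in normal conditions. Of the 10 genes, 5 were higher in this test, 1 was lower and 4 did not pass, with a median of 1.71 against -0.23 over all genes. Over all genes tested, 5.90% were higher and 15.1% lower. With median-ratio scaling the all-gene median became -0.02 and the share of calls that were higher 50.6% (28.1% as deposited). Of the 23699 genes tested, 2070 were then higher and 2024 lower, and 6 of the 10 genes were higher and 1 lower.

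The response of NAS1 differed by 3.74 (SE 0.77, limma adjusted p = 0.00709), that of YSL2 by 3.58 (SE 0.48, limma adjusted p = 0.000921) and that of IRO2 by 3.19 (SE 0.70, limma adjusted p = 0.00959). NAS2 differed by 2.94 (SE 0.84, limma adjusted p = 0.0301), and NAS1 and NAS2 summed by 3.92 (limma adjusted p = 0.0102). NAAT1 differed by 2.23 (SE 0.56, limma adjusted p = 0.0172). YSL2 and IRO2 were called in both genotypes with opposite signs, NAS1 and NAS2 fell in WT without passing in OE, and NAAT1 rose in OE without passing in WT. NAS3 fell in both genotypes, and its response was more negative in OE (difference -1.85, SE 0.24, limma adjusted p = 0.000748). DMAS1 (0.93, limma adjusted p = 0.057), IRT1 (1.19, limma adjusted p = 0.0924), TOM1 (0.66, limma adjusted p = 0.323) and YSL15 (0.19, limma adjusted p = 0.762) did not pass, and DMAS1 passed under median-ratio scaling (adjusted p = 0.0455). The NAS2 call was lost when 7 of the 11 libraries were left out singly (adjusted p up to 0.118), with an unweighted spread (0.0628) and with no filter on low values (0.0596). The NAAT1 call was lost when OE drought replicate 1 or 2 or WT drought replicate 1 or 2 was left out (adjusted p = 0.0507 to 0.0763). In NAS2 and NAAT1 the differences with 1 library left out stayed between 2.05 and 3.76.

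Other genes of iron handling were examined by lists whose loci had to be matched by name in the reference table. Of 7 genes of iron transport and storage, 3 were higher and 2 lower in OE in normal conditions, with a median of 0.20 against 0.03 over all genes, of which 19.0% were higher and 12.2% lower. VIT2, a vacuolar iron transporter, stood at 68.5 and 62.9 TPM in OE normal, against 9.87, 10.9 and 9.25 TPM in WT normal (difference 2.60, limma adjusted p = 9.64e-08). After drought its order was reversed, at 20.2, 26.0 and 21.8 TPM in OE drought, against 240, 124 and 86.9 TPM in WT drought (difference -2.55, limma adjusted p = 0.000711). The VIT2 response differed between the genotypes by -5.16 (SE 0.35, limma adjusted p = 1.43e-05), and the groups did not overlap in either condition. NRAMP1, a metal importer of the plasma membrane, stood at 3.69 and 2.99 TPM in OE normal, against 18.0, 13.8 and 16.6 TPM in WT normal, and fell by 1.98 (limma adjusted p = 5.25e-07). After drought NRAMP1 was at 1.29 to 1.38 TPM in OE and 1.31 to 2.17 TPM in WT, and its response differed by 1.80 (limma adjusted p = 0.00465). YSL16 and YSL6, of the same family as YSL2 and YSL15, were higher in OE normal by 0.65 (limma adjusted p = 0.000144) and 0.58 (limma adjusted p = 0.000709).

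**Figure D5:**
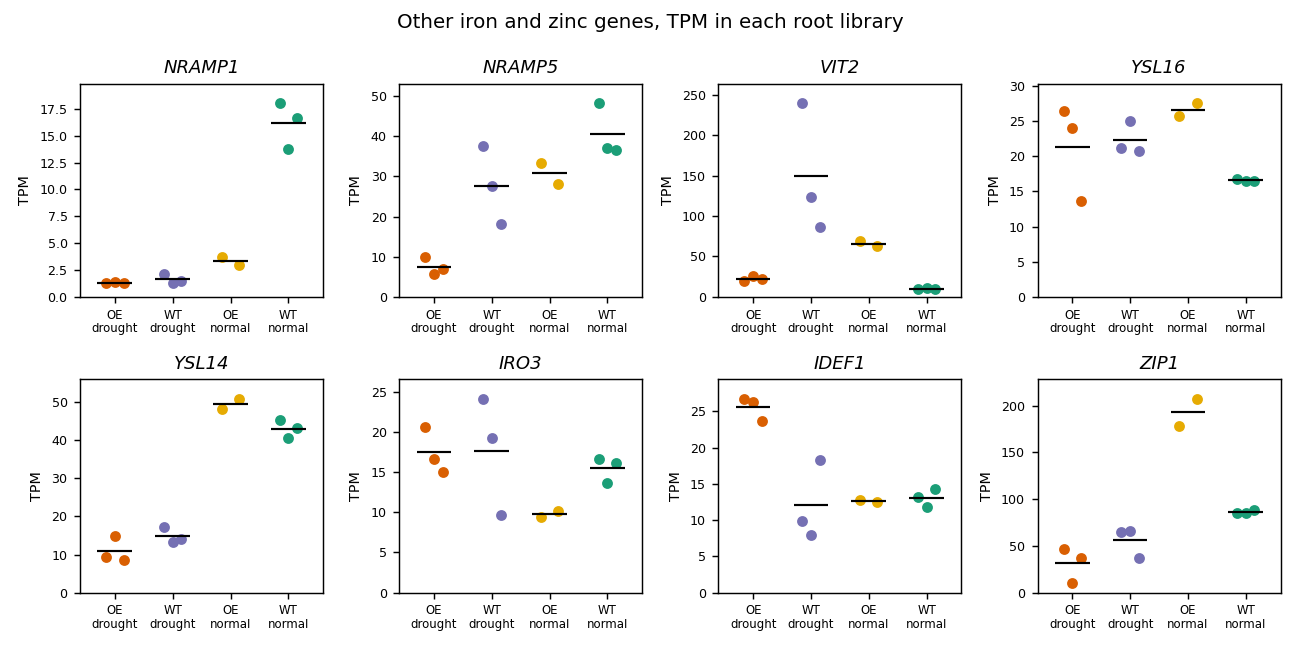
TPM in each library of 8 other iron and zinc genes matched by name, on linear axes that differ between panels; dots are libraries and bars group means, with groups from left to right OE drought (3), WT drought (3), OE normal (2) and WT normal (3). VIT2 is higher in OE than in WT in normal conditions and lower after drought.

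After drought, 2 of those 7 transport and storage genes were lower in OE and none was higher, against 13.8% and 6.97% of all genes. NRAMP5, a manganese and iron importer of the root, was the other one besides VIT2, at 9.82, 5.65 and 6.87 TPM in OE drought, against 37.5, 27.6 and 18.2 TPM in WT drought (difference -1.74, limma adjusted p = 0.0107). In WT, 1 of the 7 was higher after drought (VIT2) and 2 were lower (NRAMP1 and YSL14), against 20.5% higher and 43.7% lower over all genes. In OE 5 were lower and none was higher, against 52.5% and 20.8% over all genes, so lower values were common there in general. Of the regulators, only IRO3 and IDEF1 could be matched. IRO3, a basic helix-loop-helix factor known in rice as a negative regulator of this response, was lower in OE normal by 0.61 (difference -0.61, limma adjusted p = 0.00195). IDEF1, a factor that binds iron-deficiency elements, stood at 26.7, 26.2 and 23.7 TPM in OE drought, against 9.94, 7.97 and 18.3 TPM in WT drought (difference 1.1, limma adjusted p = 0.0242), and did not pass in normal conditions (-0.04, limma adjusted p = 0.781).

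Of 3 methionine-cycle genes tested, which renew the substrate of nicotianamine synthase, 1 was higher in OE normal, against 19.0% of all genes, too few genes to set apart from that share. SAMS1, an S-adenosylmethionine synthase, averaged 2744 ± 234 TPM in OE normal (n = 2) and 2372 ± 63.6 TPM in WT normal (n = 3), a difference of 0.21 (limma adjusted p = 0.0387). After drought it was lower in OE by 0.80 (difference -0.80, limma adjusted p = 0.0177). Of 4 zinc transporter genes tested, 1 was higher in OE normal, against the same 19.0% of all genes. This was ZIP1, at 179 and 207 TPM in OE normal, against 85.4, 84.7 and 88.7 TPM in WT normal (difference 1.15, limma adjusted p = 0.000304). None of the 4 passed in limma between OE and WT after drought, where 1 of them, ZIP4, had an unadjusted p under 0.05 (difference -0.72, unadjusted p = 0.03219).

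The joint pattern of the 10 genes was summarised as the mean of their z-scores of log2(TPM + 1) per library. It was -0.49 to 0.08 in OE drought with OE drought replicate 1 highest, -0.50 to -0.09 in WT drought, -0.54 and -0.53 in OE normal and 0.80 to 1.07 in WT normal. NAS1 followed this mean most closely (r = 0.958 over the 11 libraries), then YSL2 (0.906), NAS2 (0.889), DMAS1 (0.876) and IRO2 (0.835), and IRT1 least (0.094). Each of the 10 genes is itself part of that mean, so these r cannot be set against those of genes outside it. Among 23689 genes outside the 10, LOC_Os12g13350 (0.973) and LOC_Os11g15624 (0.960) were the most alike. Both reached 1 TPM only in WT normal (2.44 to 3.79 and 2.96 to 6.87 TPM), so they were tested only through that group. Named genes were drawn only from the iron, methionine-cycle, zinc and marker lists used here and OsNMCP1. Of these the most alike were NRAMP1 (0.872, rank 21), RBCS (0.799, rank 96), CAB2R (0.603, rank 1507), LSI1 (0.543, rank 3005) and ZIP4 (0.520, rank 3841). These libraries share condition and genotype, so the correlations are descriptions over 11 points, and RBCS and CAB2R are the 2 shoot markers given above.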

How the data were processed

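The members and gene lists were chosen with earlier results of these data known. Each of the 11 RNA libraries has a table of 55986 loci with TPM, FPKM and coverage as deposited by the authors. Per the submitters' processing notes, the tools used include StringTie 1.3.6, STAR, SAMtools 1.9 and FastQC 0.11.8. The sources used here do not give genome build, annotation or strandedness. TPM deposited by the authors sum to 1000000 per library. FPKM deposited by the authors, proportional to TPM in each library, was tried as an alternative unit. The coverage column the authors deposited, divided by FPKM, implies a depth of 5.79 to 11.95 gigabases. Without read counts there is no count test and no counting interval. Another 18 ATAC-seq samples were not analysed here.

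The 23699 genes reaching 1 TPM in 2 or more libraries were tested on log2(TPM + 1) with limma 3.58.1 in R 4.3.3. A group-means model over 11 libraries used weights by condition (3.637 for normal and 0.341 for drought libraries) and a mean-variance trend. Tests were two-sided with Benjamini-Hochberg adjustment at 0.05. The fits were tested on simulated data, where the weighted fit recovered most large changes but made more false calls than its threshold allows, both in normal conditions and after drought. With 1 unweighted spread over the 11 libraries, false calls were fewer in normal conditions and more after drought. With only the libraries compared and no weights, they were fewer in both conditions, but fewer of the true changes were recovered. Only OE against WT in each condition was simulated, not the drought responses or their difference. Joins used pandas 2.3.3 and numpy 2.4.6 in Python 3.11.15, and plots matplotlib 3.10.9.

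The tables hold no symbols. A name was accepted where the reference table (ASM3414082v1, names only) had the symbol at most 5 Mb away on that chromosome, with gene lengths in a ratio between 0.9 and 1.1. This held for 7 of the 10 members (DMAS1, TOM1 and IRO2 have no symbol there and keep the names under which they were chosen) and for 24 of 61 other loci written. All 10 members are named. From the other lists up to 4 called genes per comparison, by lowest adjusted p, could be named. Not all of those are described. Same-numbered libraries did not deviate together, so the samples were not treated as paired.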

Additional observations from a re-analysis of the deposited data

Results flagged for a closer look

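In 6 of the 10 genes the response to drought differed between OE and WT by the test of the difference itself (limma, Benjamini-Hochberg adjusted over 23699 genes). Over all genes tested, 5.90% were higher and 15.1% lower in this test. The NAS2 call was lost in 9 of 18 alternative settings and the NAAT1 call in 4. As the OE response minus the WT response on the log2(TPM + 1) scale, the values were 3.74 for NAS1, 2.94 for NAS2, 2.23 for NAAT1, 3.58 for YSL2, 3.19 for IRO2 and -1.85 for NAS3. NAS1, NAS2, YSL2 and IRO2 stood at 0.382 to 2.46 TPM in OE normal, against 9.82 to 45.3 TPM in WT normal. NAAT1, the lowest of the 6 in OE normal, stood at 0.0385 and 0.30 TPM there, against 5.06 to 8.68 TPM in WT normal. The root and shoot markers also moved with genotype and drought, and their part in these values was not tested. No group here holds more than 3 libraries, so no outlier rule was applied to single libraries. WT drought replicate 3, which stood apart by correlation, was kept, and fits leaving out 1 library at a time are given below.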

How the results depend on the processing

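Over all alternatives run, 893 of the members' differences kept their side of the threshold and 20 newly passed. Another 32 no longer passed, and 0 changed sign as calls. Some of the 893 changed sign without passing in either fit, such as NAS1 for OE against WT after drought (-0.464 to 0.887). With 1 unweighted spread, 417 genes passed for OE against WT in normal conditions (7404 with weights) and 9144 after drought (4917 with weights), and 6 and 3 of the 10 members. NAS2 (adjusted p = 0.139) and NAS3 (0.804) lost their normal-condition calls there. Leaving out 1 library at a time gave 1942 to 7443 genes for OE against WT after drought and 2491 to 7112 for the difference in response. The members passing then numbered 1 to 2 for OE against WT after drought and 2 to 6 for drought against normal in OE, with the low values without OE drought replicate 2 in both and also without WT drought replicate 1 or 2 in the first. With a replicate block, 4507 genes passed in normal conditions, 7 of the 10 members remained called, and NAS3 (0.28, adjusted p = 0.108) did not pass. The replicate block raised the members called for drought against normal in OE to 6. The replicate numbers did not pair the samples (r of -0.132 to 0.059 over 15 same-numbered pairs, 2 of 11 libraries closest to their own number). The cause of these changes was not tested. Depth in reads is unknown, so values below 1 TPM are the least certain. Among the called differences these include both OE normal libraries of NAAT1, TOM1 and YSL2, 1 of IRO2, and 5 of the 6 drought libraries of YSL15. They also include WT drought replicate 1 of NAS1, NAS2 and IRO2, and OE drought replicate 2 of NAS1 and TOM1.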
